A study of Mus musculus with 6 samples.

Results

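The heptad is a set of 7 transcription regulators that bind together at enhancers of blood stem cells, and it is encoded by Tal1, Lyl1, Lmo2, Gata2, Runx1, Erg and Fli1. Open chromatin around these 7 genes was described in long-term haematopoietic stem cells (Lt-HSCs) of aged and young mice. Every ATAC-seq peak that overlapped the body of a member or the 100 kb on either side was kept, and peaks from the 6 lists sharing 1 bp or more were joined into regions. This gave 904 regions in windows that cover 2029 kb in all, out of 882758 regions in the whole series.

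ATAC-seq marks accessible DNA with a transposase that inserts adapters where chromatin is open. The 6 samples were 3 aged and 3 young Lt-HSC samples of the C57BL/6 strain, sorted from bone marrow as lineage-negative, Kit-positive, Sca1-positive, Flk2-negative and Cd34-negative cells. Cells of both ages were kept overnight at 3% oxygen before the assay, so no value here describes cells without that culture. No transgene, deletion or drug treatment is named in the labels, the ages and the sex of the mice are not stated, and nothing says which animals or how many stood behind each list, so a p-value here reflects how far these 6 samples spread, and that spread may be technical in origin.

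Tal1 and Lyl1 are related basic helix-loop-helix proteins that bind E-boxes as partners of E proteins. Lmo2 is a LIM-only adaptor that binds no DNA itself and bridges such factors with Ldb1 and a GATA factor, Gata2 binds GATA motifs, Runx1 binds its motif together with Cbfb, and Erg and Fli1 are ETS factors. In blood stem and progenitor cells the 7 proteins are known to bind one another's enhancers, which are named by their distance in kb from the start of the gene, as in Tal1 +19 or Gata2 +9.5.

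The lists differed in length and in strength of signal, and the number of reads behind them is unknown. The aged lists held 129137 to 244692 distinct peaks and the young lists 110596 to 263956. Young replicate 2 stood apart from the rest: 224 of its 254869 peaks reached a -log10 q of 5, against 6005 to 31725 in the other lists, and its highest -log10 p was 20.6, against 80.9 to 561. Aged replicate 3 had the fewest such peaks among the other 5 lists. The main counts are given with and without these 2 lists. The sample titles carry a number that differs between replicates and is not explained in the labels.

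Marker genes were read as the strongest region within the gene and 1 kb on either side, which over 21631 genes was called in all 6 lists for 36.5%. Of 8 stem cell markers, Kit, Meis1, Hlf and Mecom were called in all 6 lists, Procr in 5, Slamf1 in 3 and Ly6a, which encodes the Sca1 used in the sort, in 2. No T and NK cell marker was called in more than 1 list (0 of 4 in all 6), and none of 4 erythroid or 4 mast cell and basophil markers was called in all 6, with or without young replicate 2. Of 4 B cell and 4 endothelial markers none was called in all 6 lists, but Pax5 (percentiles 87.6 to 95.4), Cd79a (91.9 to 95.8) and the endothelial Pecam1 (93.8 to 97.6) were called in each of the 5 lists other than young replicate 2. Csf1r was the 1 of 5 myeloid markers called in all 6 lists, and Pf4 and Itga2b were 2 of 4 in the megakaryocyte list, which Gp9 joined as the third without young replicate 2. Endothelial cells also use several heptad factors: their markers were called for 4, 3 and 1 genes in aged replicates 1 to 3 and for 3, 1 and 3 in young replicates 1 to 3. The part of these markers' cells in the results below was not tested.

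The promoters of the members show where the heptad's own starts lie and which of its motifs they carry. RefSeq promoter sequences (GRCm38.p6, 250 bases before to 50 after a start) were given for 5 of the 7 genes, with none for Lmo2 and Fli1. The 6 promoters printed here are those that overlapped a region called in at least 5 lists. Capitals mark a match, on either strand, to a GATA word (AGATAA), an ETS word (CGGAAG), a RUNX word (TGTGGT) or an E-box (CAGATG or CAGCTG); no match overlapped another.
Lyl1, chr8:84701207-84701506, + strand: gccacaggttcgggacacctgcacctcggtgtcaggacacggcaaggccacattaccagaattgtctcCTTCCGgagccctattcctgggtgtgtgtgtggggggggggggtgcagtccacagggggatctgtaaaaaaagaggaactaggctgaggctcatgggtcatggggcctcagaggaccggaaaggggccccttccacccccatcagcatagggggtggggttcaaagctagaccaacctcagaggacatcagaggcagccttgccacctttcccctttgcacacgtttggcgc
Tal1, chr4:115056176-115056475, + strand: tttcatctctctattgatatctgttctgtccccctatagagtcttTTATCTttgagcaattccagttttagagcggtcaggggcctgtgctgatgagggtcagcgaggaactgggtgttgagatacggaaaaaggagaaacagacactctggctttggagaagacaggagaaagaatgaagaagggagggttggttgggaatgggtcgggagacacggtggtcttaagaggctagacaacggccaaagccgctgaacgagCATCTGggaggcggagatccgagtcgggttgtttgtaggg
Runx1 outer start, chr16:92826025-92826324, - strand: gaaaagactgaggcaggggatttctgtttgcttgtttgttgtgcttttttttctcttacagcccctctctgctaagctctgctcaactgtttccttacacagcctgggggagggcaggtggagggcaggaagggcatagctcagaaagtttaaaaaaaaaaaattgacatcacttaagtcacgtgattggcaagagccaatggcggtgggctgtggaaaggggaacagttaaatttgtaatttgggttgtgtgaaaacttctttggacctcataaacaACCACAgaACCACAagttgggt
Runx1 inner start, chr16:92697280-92697579, - strand: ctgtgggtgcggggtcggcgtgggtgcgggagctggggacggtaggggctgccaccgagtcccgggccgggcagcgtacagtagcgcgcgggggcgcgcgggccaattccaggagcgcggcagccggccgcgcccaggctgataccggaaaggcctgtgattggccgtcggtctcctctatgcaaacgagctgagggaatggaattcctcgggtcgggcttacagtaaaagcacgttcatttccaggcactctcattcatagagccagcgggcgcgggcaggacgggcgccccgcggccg
Gata2 inner start, chr6:88198414-88198713, + strand: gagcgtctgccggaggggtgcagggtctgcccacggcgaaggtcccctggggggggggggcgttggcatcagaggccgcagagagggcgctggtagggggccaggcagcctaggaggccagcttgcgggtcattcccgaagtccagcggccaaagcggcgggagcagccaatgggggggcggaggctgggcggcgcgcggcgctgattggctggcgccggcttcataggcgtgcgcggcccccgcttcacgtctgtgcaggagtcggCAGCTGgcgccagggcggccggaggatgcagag
Erg inner start, chr16:95459299-95459598, - strand: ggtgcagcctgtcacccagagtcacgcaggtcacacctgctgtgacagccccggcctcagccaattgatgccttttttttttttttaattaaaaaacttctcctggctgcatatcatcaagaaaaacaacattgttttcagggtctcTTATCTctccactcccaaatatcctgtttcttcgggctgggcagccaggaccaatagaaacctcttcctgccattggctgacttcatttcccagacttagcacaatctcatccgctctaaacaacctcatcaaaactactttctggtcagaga

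Among 32585 promoters of the same length in that table, 11.2% held the GATA word, 17.0% the ETS word, 16.6% the RUNX word, 30.6% an E-box and 58.4% at least 1 of these words. The Lyl1 promoter held 1 ETS word, that of Tal1 a GATA word and an E-box, and that of the inner Erg start a GATA word. The outer Runx1 promoter held 2 RUNX words, both just after the start, while the inner one held none of the words. The 2 Runx1 promoters also differed in base composition: the outer one had 45.0% GC with 2 CpG dinucleotides and the inner one 69.0% GC with 35, beside medians of 53.0% and 7 over all promoters. The inner Gata2 promoter was the most GC-rich of the 6, at 73.7%. A word match describes the sequence and does not show that a factor binds there.

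A larger share of heptad regions than of all regions was called in every list. Of the 904 regions, 26 (2.88%) were called in all 6 lists, against 1.09% of all 882758 regions and 1.37% of the 679543 regions within 100 kb of a protein-coding gene. A further 30 (3.32%) were called in 5 lists, against 1.07% of all regions and 1.32% of those within 100 kb of a protein-coding gene. Calls in only 1 list made up 673 (74.4%), against 85.2% over all regions. These shares are descriptions with no test, since peaks of 1 locus are not independent of each other. The share also depends on which lists are used: 73 of 653 heptad regions (11.2%) were called in all of the 4 lists that remained without young replicate 2 and aged replicate 3, against 4.38% over all regions.

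**Figure D1:**
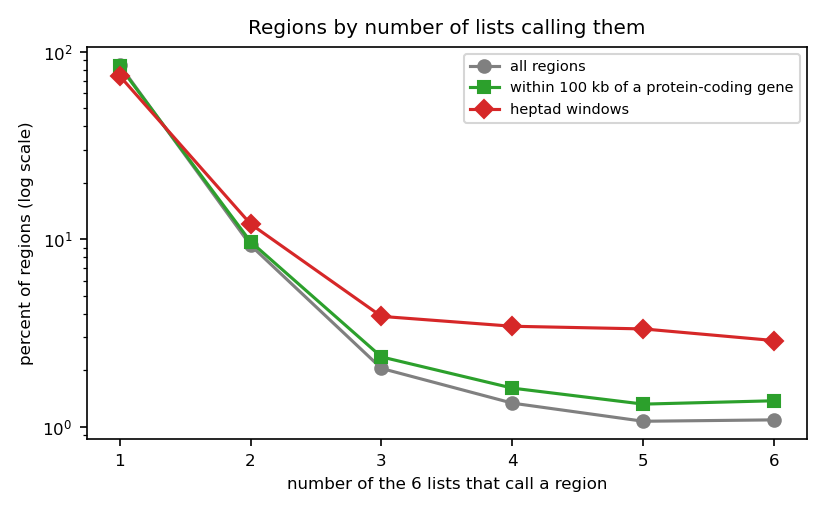
Percent of regions (log scale) by the number of lists that call them, for all regions, for regions within 100 kb of a protein-coding gene and for the heptad windows. The heptad line lies below the other 2 at 1 list and above them from 2 to 6 lists.

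The 26 shared regions were wider and stronger than most. They were picked as called in every list, weak lists included, and the strongest peak of a region sets its rank. High ranks are therefore partly built in. Their median width was 680.5 bp (416 to 1386), against 193 bp for heptad regions called in 1 list; a merged region can only widen as more lists join it. Ranking each peak by its -log10 p among the peaks of its own list gives a percentile, in which 100 is the strongest peak of the list. At the 80th percentile or above stood 25, 26 and 23 of the 26 regions in aged replicates 1 to 3, and 25, 9 and 26 in young replicates 1 to 3. Young replicate 2 was the lowest of the 6 lists in 17 of the 26. Summits lay over a median span of 165 bp across the 6 lists and 102 bp without young replicate 2. Less shared heptad regions had shorter spans, with medians of 110.5 bp for those in 5 lists and 84 bp for those in 2 to 4. A span can only grow as more lists join it. Among the 26 regions the narrowest span, 40 bp, was that of the Runx1 region 3.8 kb inside the gene. The widest, 889 bp, was that of the Gata2 region 87.3 kb upstream.

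**Figure D2:**
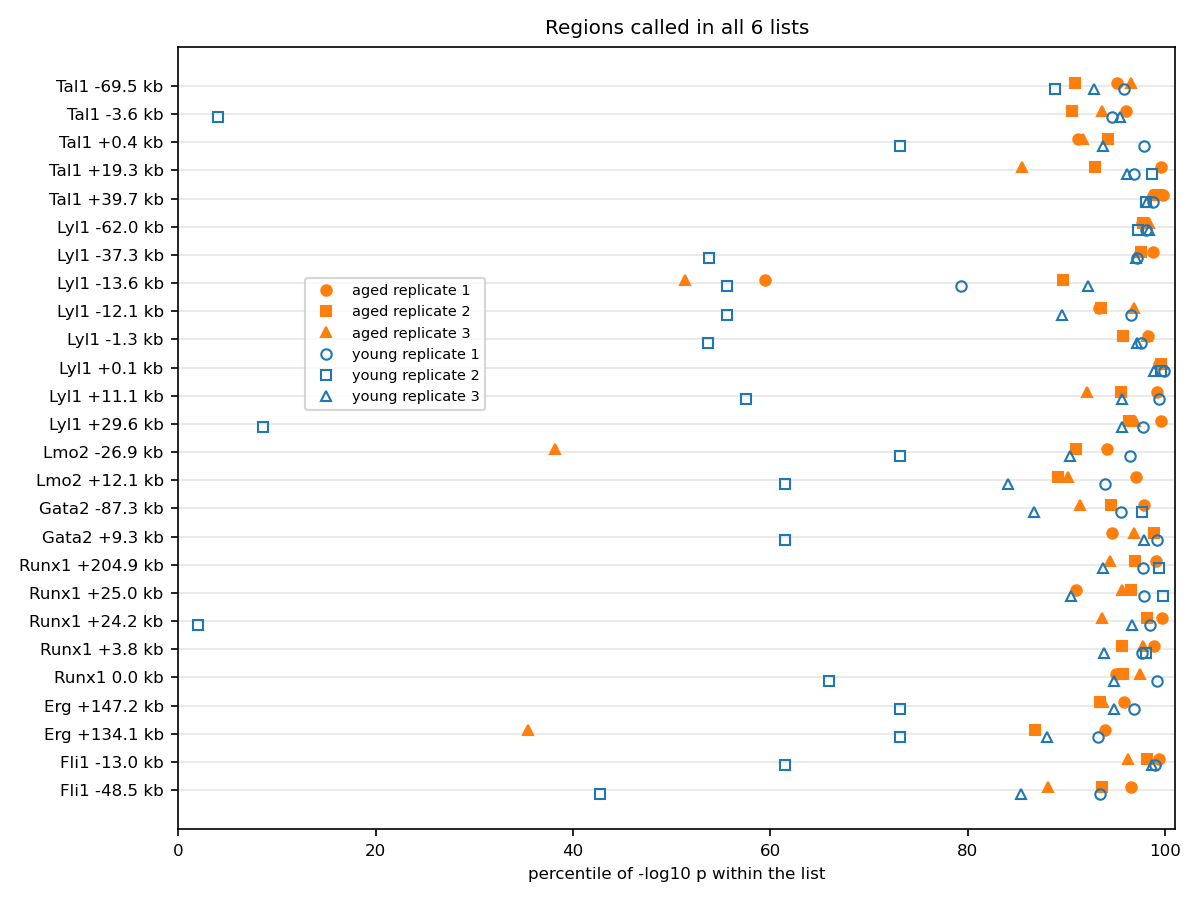
Percentile of -log10 p within each list for the 26 heptad regions called in all 6 lists, named by gene and distance in kb from its outermost start, with 1 mark for each aged and young list. Most marks stand above the 80th percentile, and the scattered low marks belong mainly to young replicate 2.

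The shared regions were spread unevenly over the 7 genes. Lyl1 had 8 of them, Tal1 and Runx1 5 each, and Lmo2, Gata2, Erg and Fli1 2 each. Scaled to window length these are 3.94 per 100 kb at Lyl1, 2.32 at Tal1, 1.18 at Runx1, 0.938 at Gata2, 0.893 at Lmo2, 0.623 at Fli1 and 0.468 at Erg, beside a median of 0.716 over all genes. Lyl1 lay above 98.1% of genes and Erg above 41.0%. The part of neighbouring genes in this order was not tested. Of the 26 regions, 4 lay within 1 kb of a listed start of another gene, or of either end where a gene had no listed promoter. These were 3 in the Lyl1 window and 1 in the Tal1 window, and 22 remained without them. The rest were 3 at starts of the members themselves, 8 inside the genes, 7 in the 5′ flanks and 4 in the 3′ flanks; exons and introns were not told apart, as the gene table gives only gene ends.

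**Figure D3:**
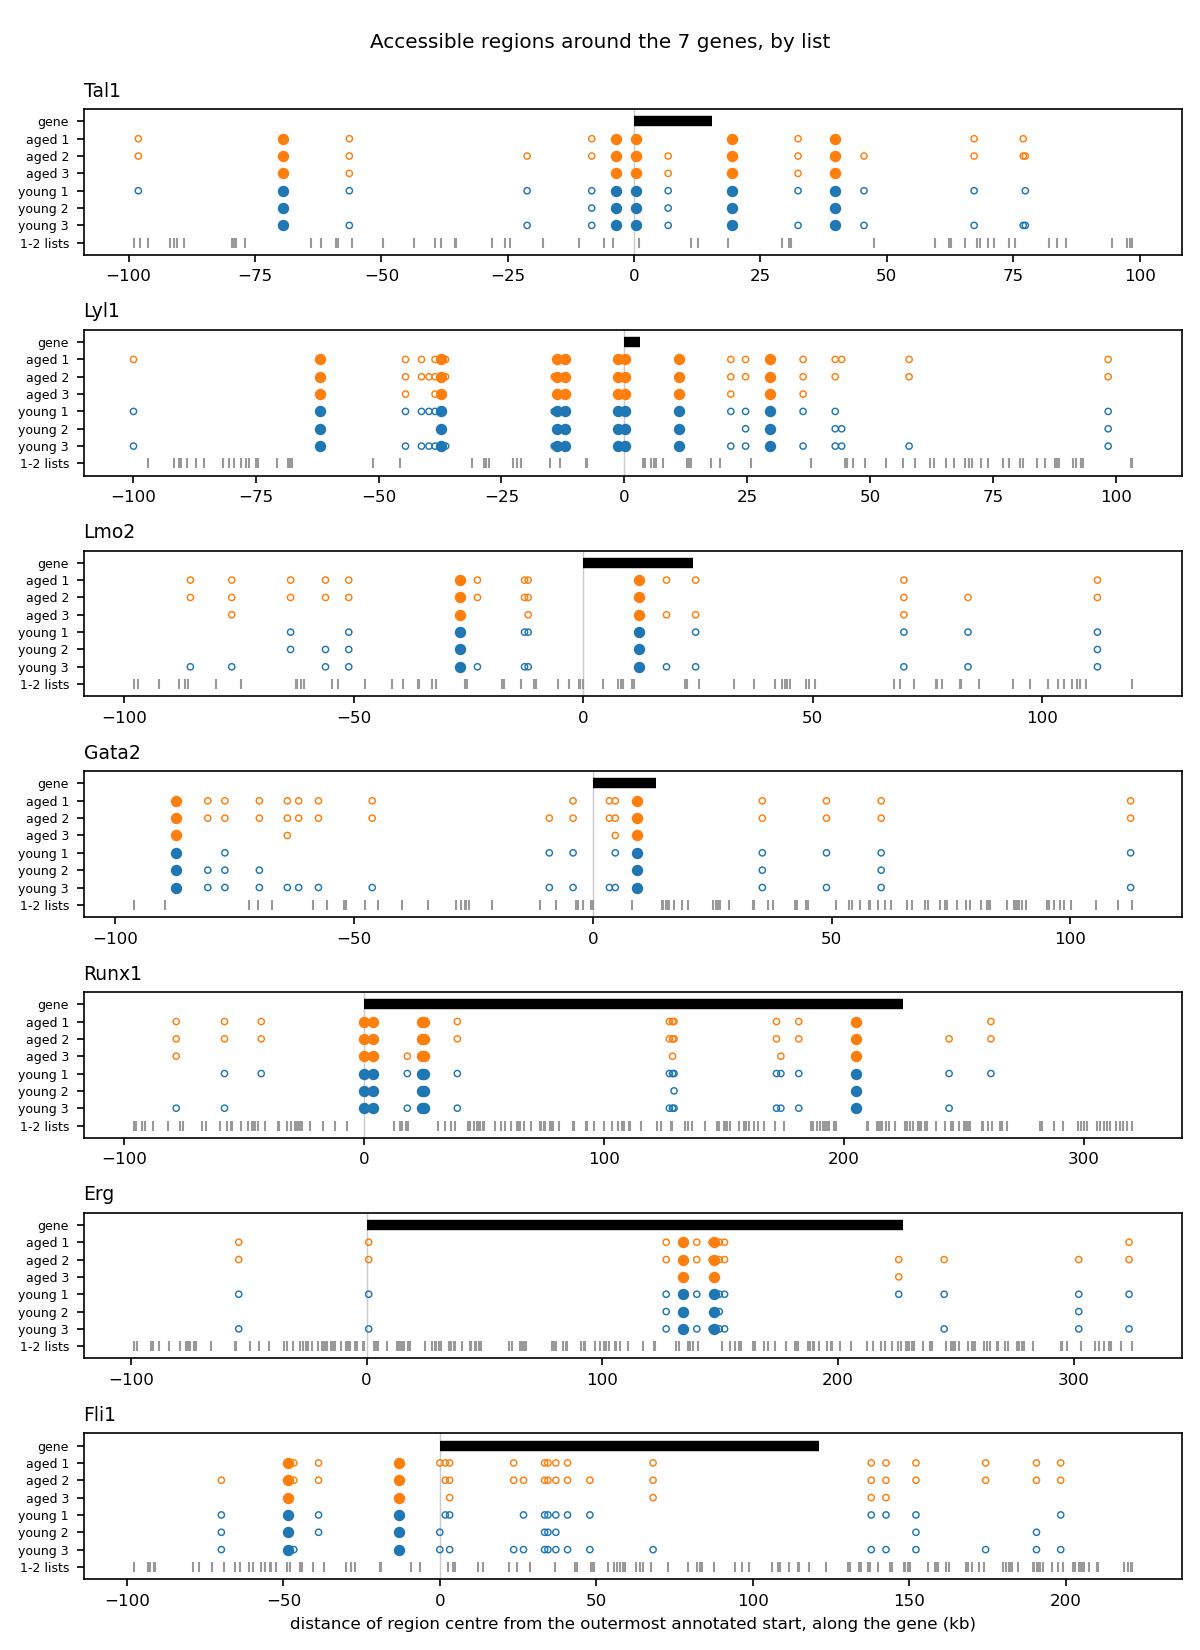
Maps of the 7 heptad windows by distance in kb from the outermost annotated start, drawn in the direction of transcription. Each row is an aged or young list, and a further row of ticks holds the regions called in only 1 or 2 lists. Filled marks are regions called in all 6 lists, and open marks are regions called in more than 2 lists but not in all 6.

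Tal1 (chr4:115056426-115071755) was open at its start and at each of its 3 published enhancers. The start region (chr4:115056391-115057230) had percentiles of 91.2, 94.2 and 91.7 in aged replicates 1 to 3 and of 97.8, 73.1 and 93.7 in young replicates 1 to 3. The region 19.3 kb downstream (chr4:115075444-115076070), at the distance of the +19 stem cell enhancer, had 99.5, 92.9 and 85.5 in the aged and 96.8, 98.6 and 96.1 in the young lists. Both groups were high at these sites and overlapped.

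The strongest Tal1 region lay 39.7 kb downstream (chr4:115095499-115096844), at the distance of the +40 element, which is known for its activity in erythroid cells. Its percentiles were 99.7, 99.3 and 98.5 in the aged and 98.7, 98.1 and 98.1 in the young lists. The authors' fold enrichments there were 10.97, 14.6 and 7.4 in the aged and 8.3, 4.2 and 13.2 in the young lists, so that all 6 lists ranked the region near their top at very different signal strengths. Upstream, a region 3.6 kb before the start (chr4:115052553-115053027), at the distance of the -4 element, stood at 90.6 to 96.1 in 5 lists and at 4.0 in young replicate 2. Another, 4.27 kb before the start, was called in young replicate 2 alone, at 1.97. The fifth shared Tal1 region, 69.5 kb upstream (chr4:114986394-114987420), was beside a listed start or end of Cmpk1. Such sites of the neighbours Stil and Pdzk1ip1 were called in 5 lists each, all but young replicate 2.

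Lyl1 (chr8:84701423-84704716), the closest relative of Tal1, had the strongest start of the 7 genes. Its start region (chr8:84701175-84701906), which spans the whole Lyl1 promoter printed above, had percentiles of 99.3, 99.5 and 99.8 in the aged and of 99.8, 99.6 and 98.9 in the young lists, so even the weak list ranked it near the top. The mean, 99.5, was above that of the strongest region of 98.4% of genes. Fold enrichments were 7.3, 10.3 and 8.5 in the aged and 9.9, 5.8 and 10.1 in the young lists, again with overlapping groups.

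Other shared regions of the Lyl1 window lay on both sides of this compact gene. The one 62.0 kb upstream (chr8:84638866-84639961), beside a listed start or end of Cacna1a, stood between 97.3 and 98.4 in all 6 lists. Regions beside Nacc1, 13.6 kb upstream, and beside Trmt1, 1.3 kb upstream (chr8:84699880-84700336), were shared too. The one beside Ier2, 38.5 kb upstream, was called in all but young replicate 2. Trmt1 was also matched 14.2 kb upstream, and its start was not told apart from its other end. Downstream, regions at 11.1 kb (chr8:84712128-84713014) and 29.6 kb (chr8:84730710-84731424) stood at 92.1 to 99.4 and 95.6 to 99.6 in 5 lists, with 57.5 and 8.5 in young replicate 2.

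Lmo2 (chr2:103957903-103981878), the bridging adaptor, had few and weak calls at its outermost start. A region over that start (chr2:103957795-103958016) was present in aged replicate 1 alone, at the percentile 59.4. Beside it, a region 0.72 kb upstream was called in young replicate 1, at 49.3, and another 1.03 kb upstream in young replicates 1 and 2, at 7.16 and 42.7. Its strongest region lay 12.1 kb inside the gene (chr2:103969305-103970690), with 97.0, 89.2 and 90.2 in the aged and 93.8, 61.5 and 84.0 in the young lists. The gene table gives no inner start for Lmo2, so whether this region marks one was not tested.

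Of the 4 published upstream Lmo2 distances, 3 had a region within 2 kb. The region at 26.9 kb (chr2:103930637-103931316), assigned to -25, was called in all 6 lists with 94.1, 90.9 and 38.1 in the aged and 96.4, 73.1 and 90.3 in the young lists. The region at 12 kb (chr2:103945562-103946236), at the distance of -12, stood at 88.9 to 96.9 in 5 lists and was not called in young replicate 2. For -75, the region at 76.6 kb (chr2:103881146-103881412) had 84.9, 78.0 and 51.4 in aged lists and was called in young replicate 3 alone among the young, at 68.5. A nearer region, at 74.7 kb, was called in young replicate 1 alone, at 24.3. The -70 element had no region within 2 kb.

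The +9.5 enhancer of Gata2 (chr6:88193891-88207032) is known to be needed for stem cell formation. The strongest region within the gene and 1 kb on either side lay at its distance. That region, 9.3 kb downstream of the start (chr6:88202802-88203667), had percentiles of 94.6, 98.9 and 96.8 in the aged and of 99.2, 61.5 and 97.9 in the young lists. A region over the outermost start itself (chr6:88193793-88194298) was called in young replicate 2 alone, at 80.3, and a neighbouring one in young replicates 1 and 3, at 47.0 and 47.2. The inner start had a region (chr6:88198243-88198969) in 5 lists, at 94.9, 82.3 and 82.6 in aged lists and at 96.4 and 85.04 in young replicates 1 and 3. It lies 4.7 kb from the outermost start and is the region within 2 kb of the published +3 distance that most lists called. A separate region nearer to that distance, at 3.49 kb (chr6:88197138-88197629), was called in aged replicates 1 and 2 at 91.5 and 82.9 and in young replicate 3 at 77.9.

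Far upstream of Gata2, the region at 87.3 kb (chr6:88105925-88107158) was the other one called in all 6 lists, with 97.8, 94.5 and 91.4 in the aged and 95.5, 97.6 and 86.7 in the young lists. Its mean percentile over the 6 lists was 93.9, above the 91.5 of the region at 9.3 kb. A region at 77.0 kb (chr6:88116338-88117432) lies at the distance of an enhancer known as -77, a name added after these values were seen. It had 88.5 and 81.9 in aged replicates 1 and 2, no call in aged replicate 3, and 92.7, 61.5 and 67.5 in young lists. The published -83 distance had no region within 2 kb of its place from the outermost start, while the region at 77.0 kb lies 81.8 kb from the inner start. A region at 4.1 kb upstream, assigned to -3, was called in 2 aged and 2 young lists. Regions nearer to that distance, at 3.5, 3.07 and 2.04 kb upstream, were called in 1 aged list each.

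Runx1 (chr16:92601466-92826074), read on the minus strand from 2 distant starts, was open at its outer start in all 6 lists. That region (chr16:92825867-92826324) had percentiles of 95.0, 95.7 and 97.4 in the aged and of 99.2, 66.0 and 94.8 in the young lists. The inner start, 128.7 kb away, had a region (chr16:92697190-92697609) with 97.1, 91.7 and 34.9 in aged lists and 91.1 and 86.4 in young replicates 1 and 3. Young replicate 2 had no call over the inner start but called a region 0.56 kb from it (chr16:92696587-92696956) at 61.5, as did 4 other lists.

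The strongest Runx1 region lay 3.8 kb inside the gene (chr16:92821920-92822720), at 98.8, 95.6 and 97.7 in the aged and 97.7, 98.1 and 93.7 in the young lists. At the distance of the +23 enhancer, known for marking emerging and adult stem cells, a region at 24.2 kb (chr16:92801516-92802196) had 99.6, 98.2 and 93.6 in the aged and 98.5, 2.0 and 96.6 in the young lists. A second region right beside it, at 25.04 kb (chr16:92800825-92801240), ranked at 99.8 in young replicate 2 and at 90.4 to 97.8 in the other lists. The region at 25.04 kb ranked above its neighbour in aged replicate 3 and young replicate 2 and below it in the other 4 lists. Deep in the gene, at 204.9 kb (chr16:92620713-92621588), a further region stood between 93.6 and 99.4 in all 6 lists.

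Erg (chr16:95359169-95586600) had no region shared by 6 lists at any of its starts. Near the outermost start, a region 0.9 kb inside the gene was called in 2 aged lists at 28.3 and 44.7 and in 2 young lists at 49.3 and 73.1. The inner start at 127.3 kb had a region (chr16:95459269-95459706) in 5 lists, with 97.4 and 87.5 in aged replicates 1 and 2, no call in aged replicate 3, and 80.6, 61.5 and 90.1 in young lists. The remaining listed start had no region within 1 kb.

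Both shared Erg regions lay inside the gene beyond the inner start. The stronger, at 147.2 kb (chr16:95439171-95439632), had 95.8, 93.4 and 93.6 in the aged and 96.8, 73.1 and 94.8 in the young lists, and lies 19.9 kb past the inner start. The other, at 134.1 kb (chr16:95452155-95452826), stood at 86.8 to 93.9 in 4 lists, with 35.4 in aged replicate 3 and 73.1 in young replicate 2. Near the published +65 and +85 distances from the outermost start, no region was called in more than 1 list. The +65 distance had 2 such regions in aged replicate 1 and 1 in young replicate 3, the +85 distance had 1 in aged replicate 1 and 2 in young replicate 1, and +75 had none. From any listed start, the +85 distance was met by a region in 2 aged and 2 young lists. The +65 distance was then met in 1 aged and 1 young list and +75 in 1 aged list. Each of these matches was measured from the listed start without a region within 1 kb.

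Fli1 (chr9:32422204-32543432) was the 1 member whose strongest region in or near the gene was not called in all 6 lists. That region, 3.1 kb inside the gene (chr9:32540078-32540519), had 95.0, 89.8 and 82.6 in aged lists and 94.5 and 89.8 in young replicates 1 and 3, with no call in young replicate 2. A region over the outermost start was called in aged replicate 1 at 64.0 and in young replicates 2 and 3 at 57.5 and 44.1. Shared regions lay upstream instead: the one at 13.0 kb (chr9:32556097-32556731) had 99.4, 98.1 and 96.3 in the aged and 98.9, 61.5 and 98.7 in the young lists. It is just outside the 2 kb allowed around the published -15 element, and with 4 kb allowed it counts. The one at 48.5 kb (chr9:32591696-32592145) stood at 85.4 to 96.5 in 5 lists and at 42.7 in young replicate 2. The +12 distance had 2 regions, both called in young replicate 3 alone.

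Over the 17 published distances of the 6 genes that have one, 6 had a region in all 6 lists, 8 in at least 5 lists and 13 in at least 1. The 6 were Tal1 -4, +19 and +40, Lmo2 -25, Gata2 +9.5 and Runx1 +23. With 1 kb allowed around a distance in place of 2 kb, 4 had a region in all 6 lists, and with 4 kb allowed 7 did. Without young replicate 2, 8 had a region in every list left, and 9 did without aged replicate 3 as well. A match by distance is a description, as the distances are rounded and no element was mapped by sequence. No share at other places in the windows was computed for any of these counts. With 904 regions in 2029 kb, a region in at least 1 list within 2 kb is common anywhere in the windows. The count of 13 therefore says little by itself.

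Presence in the lists was compared between the ages first. In sorted bulk cells, fewer cells with an open site and less opening per cell cannot be told apart. None of the heptad regions had a call in every aged list without any in a young list, and none had the reverse. Over all regions these shares were 0.0502% and 0.0608%, so that with 904 regions a count of 0 is close to the background. The nearest were 4 regions called in 3 aged lists and 1 young list, at Lmo2 (76.6 kb upstream), Gata2 (63.9 kb upstream), Runx1 (78.2 kb upstream) and Fli1 (68.2 kb inside), each without young replicates 1 and 2. In the other direction, 2 regions were called in 3 young lists and 1 aged list, at Erg (302.2 kb from the start) and Fli1 (69.8 kb upstream), both without aged replicates 1 and 3. Over all regions 0.125% were called in 3 aged lists and 1 young list and 0.12% in 3 young lists and 1 aged list. In the 4 lists without young replicate 2 and aged replicate 3, 7 regions (1.07%) were in both aged lists alone and 9 (1.38%) in both young lists alone, against 1.28% and 0.969% of all regions.

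By strength, 1 of the 26 shared regions had every aged list above every young list and none had the reverse. Over the 9582 regions called in all 6 lists these shares were 3.55% and 2.54%, so the count of 1 is near the background. The region was 37.3 kb upstream of Lyl1 (chr8:84663896-84664436), with percentiles of 98.7, 97.5 and 97.2 in the aged and 97.2, 53.8 and 97.1 in the young lists. Aged lists were higher by 15.2 percentile points on average but by 0.72 points without young replicate 2 (exact two-sided permutation p = 0.1, the smallest that 3 lists against 3 allow; Benjamini-Hochberg adjusted p = 0.984 over the 9582 regions). No region of the series could pass 0.05 in this design.

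The share of each list's peaks that fell in a member's window overlapped between the ages for all 7 genes. At Runx1 the values were 21.7, 30.2 and 31.6 peaks per 100000 in aged replicates 1 to 3 and 22.7, 19.2 and 30.7 in young replicates 1 to 3 (27.8 ± 5.36 against 24.2 ± 5.90, SD, n = 3 each; exact permutation p = 0.6). At Fli1 they were 18.8, 27.1 and 17.7 in the aged and 19.3, 18.8 and 37.1 in the young lists (21.2 ± 5.14 against 25.1 ± 10.4, SD, n = 3 each; exact permutation p = 0.5). In both cases 1 or 2 lists of each age were high and the ranges crossed. Aged replicate 2 and young replicate 3, which have the most peaks at a -log10 q of 5, held the highest shares at 6 of the 7 genes; at Runx1 aged replicate 3 stood above them. The part of signal strength in these shares was not tested.

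The other members had differences no larger than the spread between lists. Tal1 had 14.6 ± 5.99 in aged against 12.1 ± 3.66 in young lists, and Gata2 18.2 ± 5.05 against 16.3 ± 7.87. Lyl1 had 19.7 ± 5.64 against 20.3 ± 11.4, Lmo2 13.4 ± 3.53 against 14.6 ± 4.68, and Erg 24.4 ± 5.87 against 25.6 ± 9.99 (all peaks per 100000, SD, n = 3 each; exact permutation p from 0.6 to 1). Separation of all aged from all young lists was seen for 0 of the 7 genes, beside 2.53% of all genes with aged higher and 2.44% with young higher. Every adjusted p over the 21631 genes was 1, so the design gives no call in either direction.

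**Figure D4:**
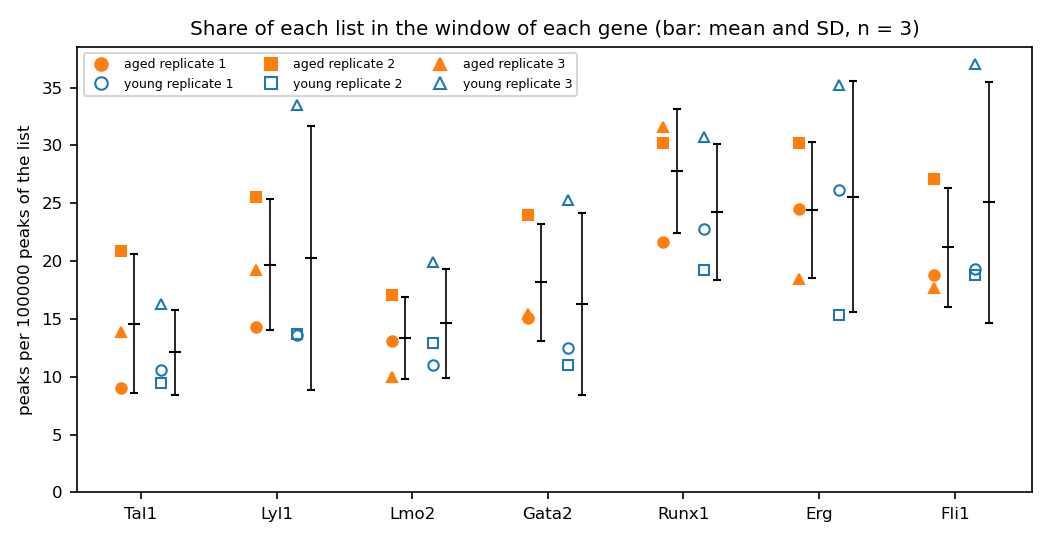
Peaks in each member's window per 100000 distinct peaks of the list, with a point for each aged and young list and the mean with its SD. Aged and young points overlap for each of the 7 genes.

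Genes of the proteins that work with the heptad were called in nearly every list. Of 14 partner genes, among them Ldb1, the core of the bridging complex, the E proteins Tcf3, Tcf4 and Tcf12 and the Runx1 partner Cbfb, 13 were called in all 6 lists by their strongest region, with a median mean percentile of 97.5. The exception, Tcf12, was missing in aged replicate 3. Over all genes 36.5% were called in all 6 lists. The heptad genes themselves had 6 of 7.

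Of 8 genes known as heptad targets, 6 were called in all 6 lists, with a median mean percentile of 91.7. The repressor genes Gfi1 and Gfi1b lacked a call in aged replicate 3 only. Gfi1 had 84.9 and 79.3 in aged replicates 1 and 2 and 64.97, 88.8 and 90.2 in young lists, and Gfi1b had 90.1 and 87.7 in aged replicates 1 and 2 and 95.6, 73.1 and 88.5 in young lists. Aged replicate 3 is also the list that most often lacked a heptad region called in the other 5, in 16 of 30 cases (53.3%), against 32.8% of such regions over the genome. Young replicate 2 lacked 13 of the 30 (43.3%), against 61.5% over the genome.

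By the strongest region within the gene and 1 kb on either side, the members ranked Lyl1 (mean percentile 99.5), Runx1 (96.9), Gata2 (91.5), Erg (91.3), Tal1 (90.3), Lmo2 (86.0) and Fli1 (75.3, with the missing list counted as 0). Neighbours in this order from Runx1 to Fli1 had overlapping values over the 6 lists. Without young replicate 2 the means were 99.5 for Lyl1, 97.5 for Gata2, 96.7 for Runx1, 94.9 for Erg, 93.7 for Tal1, 90.9 for Lmo2 and 90.3 for Fli1, so Gata2 then stood above Runx1. The gene most like each member by the mean absolute difference of this percentile over the 6 lists was Phtf2 for Lyl1 (0.088 points), Qars for Runx1 (0.36), Xpo7 for Gata2 (0.38), Mxi1 for Erg (0.44), Gstm7 for Fli1 (0.54), Coro7 for Tal1 (0.79) and Uxt for Lmo2 (1.05). With 6 lists and 21631 genes, close matches of this kind are common and say nothing of shared control.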

How the data were processed

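Accessible chromatin was measured by ATAC-seq in 3 aged and 3 young Lt-HSC samples, grouped by their titles. The deposited peak lists, 1 per sample, were made on mm10 with tools that include Bowtie2, SAMtools, Picard and MACS2, per the submitters' processing notes. Versions, parameters, any shift of reads for the transposase and read depth are not given in the sources used here. Each deposited list gives, per peak, a score, a fold enrichment (a ratio over background), the p-value and q-value as -log10, and a summit. The lists have no header, so units were read from the values. The lowest -log10 p is 2.00 in every list, so weak peaks are included.

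Distinct intervals on chromosomes 1 to 19 and X were kept, with the strongest -log10 p, and peaks of all lists overlapping by at least 1 bp were merged. A list calls a region if it has a peak in it. The percentile is the rank of the region's strongest -log10 p within its list, ties averaged. Gene ends came from RefSeq on GRCm38.p6, the assembly mm10 names; strands of Lmo2 and Fli1 are textbook knowledge. Groups were compared by exact two-sided permutation with Benjamini-Hochberg adjustment over all regions or genes. The calculations were tested on simulated data. Python 3.11.15, pandas 2.3.3, numpy 2.4.6 and scipy 1.17.1 were used.

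The members, gene lists and enhancer distances were chosen with earlier results of these data known, so none is independent support. The value of 1 stem cell marker is not reported here. The rule for naming took the start, the strongest, age-only and distance-matched regions of each member, shared regions whose groups do not overlap, partner or target genes missing in a list, and the most alike gene; other shared regions were named after their values were seen. Same-numbered aged and young lists carry the same "exp" number, which the labels do not explain. Alternatives were a q limit, equal list length, 50% coverage, a 50 kb flank, another ranking value, other tolerances, a replicate block and leaving out lists.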

Additional observations from a re-analysis of the deposited data

How the results depend on the processing

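Of 56 values of the main counts under the alternatives, 30 stayed within 1.5 times the count and 26 did not. The 26 heptad regions called in all lists became 6 at a -log10 q of at least 2, 9 with the strongest 50000 peaks of each list, 10 where peaks had to cover at least 50% of the region, and 26 to 42 as each list was left out in turn, with 39 without young replicate 2 and 42 without aged replicate 3. The count of aged-only regions, 0, ranged from 0 to 7 as single lists were left out (3 without aged replicate 1 or 2, 7 without aged replicate 3, 4 without young replicate 3), and that of young-only regions, 0, from 0 to 9 (2 without aged replicate 2; 8, 7 and 9 without young replicates 1, 2 and 3); the shares over all regions also grew there, to at most 0.859% and 1.23%. The 6 published distances with a region in all lists became 2 both at a -log10 q of at least 2 and with the strongest 50000 peaks. The 1 region whose groups did not overlap became 0 when fold enrichment was ranked and 2 to 7 as single lists were left out (2, 2 and 5 without aged replicates 1 to 3; 7, 3 and 2 without young replicates 1 to 3). Over all regions the shares in those settings were 4.89% to 19.3% with aged above and 3.26% to 11.8% with young above, and 19.3% and 3.26% without young replicate 1, where all 7 had aged above. In an alternative chosen after seeing the data, with young replicate 2 and aged replicate 3 both left out, 73 regions were in all lists, 7 were aged-only, 9 young-only and 18 did not overlap between groups (11 of 73 with aged above and 7 with young above, beside 13.5% and 10.4% of all regions).

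The difference in window share (aged minus young, peaks per 100000) changed sign in 23 of 77 values over the 7 genes, none past a threshold in any. At a -log10 q of at least 2 it was 4.50 at Erg, 7.30 at Fli1, 6.27 at Lmo2, 2.68 at Lyl1, -3.87 at Runx1 and -10.4 at Tal1. With the strongest 50000 peaks it was 6.0 at Erg, 2.0 at Fli1, 3.33 at Lmo2 and 6.67 at Lyl1, with 50 kb on each side 0.948 at Erg and 0.929 at Lyl1, and in the 4 lists without young replicate 2 and aged replicate 3 it was -0.807 at Runx1. Leaving out single lists gave -6.31 to 3.68 at Erg, -7.00 to 2.12 at Fli1, -1.01 to 6.43 at Gata2, -3.07 to 1.41 at Lmo2, -3.90 to 6.01 at Lyl1, 1.07 to 6.83 at Runx1 and -0.679 to 5.28 at Tal1. The cause of these changes was not tested.

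With a replicate block on the list number, 6 of the 26 regions (23.1%) differed in the same direction in all 3 pairs, against 23.8% of the 9582 regions called in all 6 lists, and the window shares gave sign-flip permutation p from 0.75 to 1, where the smallest possible is 0.25. The deviations of same-numbered lists correlated at 0.360, -0.356 and -0.157 over 20760 genes, and not every list correlated best with its own number. The highest correlation, 0.449, was between aged replicate 2 and young replicate 3, which differ in number and are the lists of strongest signal. The part of signal strength in these correlations was not tested, so they cannot decide whether the numbers pair the samples. The main tests were left unpaired because the labels do not explain the numbers. Read depth is unknown, and a missing call in a list of weak signal does not show closed chromatin.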
